A study of Mus musculus with 3 samples.

Results

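The classical protein tyrosine phosphatases other than CD45 are described here in effector memory CD4 T cells of the mouse. Members were the protein-coding genes of the GENCODE M21 annotation whose symbol begins with Ptpn and a digit or with Ptpr and a letter, leaving out Ptprc, which encodes CD45, and Ptprcap, which encodes a protein bound to CD45. This gave 36 genes of 55536 annotated genes, 17 of them Ptpn (non-receptor) and 19 Ptpr (receptor type) genes. The RNA was polyA-selected and sequenced from effector memory CD4 alpha-beta T cells of a male B6.SJL-Ptprca Pepcb/BoyJ mouse aged 5 months, a strain that carries the a allele of Ptprc on a C57BL/6 background and is known as CD45 congenic. No treatment is labelled, and the sort gate is not stated. The 3 libraries are labelled technical replicates 1, 2 and 3 of 1 biosample, and those numbers name them here. They form 1 group, so no conditions were compared, and each SD below measures only the spread between libraries of this biosample. Each p-value sets that spread against counting error, so it also depends on the number of counts and is no measure of the size of the spread.

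Protein tyrosine phosphatases remove phosphate from tyrosine residues and so oppose tyrosine kinases. Their catalytic domain holds a cysteine that takes up the phosphate and an arginine that binds it, both in a short loop shared by the family. In T cells, phosphatases act on the Src family kinases Lck and Fyn, on the antigen receptor and its kinase ZAP-70, on the JAK and STAT proteins of cytokine receptors and on MAP kinases. Some hold signalling down, and others, such as CD45, remove an inhibitory phosphate from the kinases.

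The sequences of this loop are shown because they define the family and because they let each annotated transcript be sorted by whether it holds the loop's bases. In every one of the 36 members a stretch of 33 bases, 11 codons, that encodes the loop was found in a coding transcript. There were 45 stretches in all, since 9 receptor-type members held a second stretch, in their second phosphatase domain. The stretches below are from the GENCODE M21 transcripts (GRCm38, the mm10 assembly), 5′ to 3′ on the gene's own strand. Capitals mark the cysteine codon (bases 7 to 9) and the arginine codon (bases 25 to 27). The lines give the 3 members of the PEST group (Ptpn22, Ptpn18, Ptpn12), the SH2 domain pair (Ptpn6, Ptpn11), Ptpn1, Ptpn7, the first domain of Ptpra, both domains of Ptpre, and Ptpn23.
Ptpn22: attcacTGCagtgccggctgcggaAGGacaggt
Ptpn18: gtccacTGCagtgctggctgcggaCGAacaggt
Ptpn12: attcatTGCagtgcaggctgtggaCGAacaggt
Ptpn6: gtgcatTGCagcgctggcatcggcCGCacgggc
Ptpn11: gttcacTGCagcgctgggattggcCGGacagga
Ptpn1: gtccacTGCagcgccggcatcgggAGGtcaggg
Ptpn7: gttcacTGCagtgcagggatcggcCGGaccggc
Ptpra first domain: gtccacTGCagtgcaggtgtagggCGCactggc
Ptpre first domain: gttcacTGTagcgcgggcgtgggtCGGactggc
Ptpre second domain: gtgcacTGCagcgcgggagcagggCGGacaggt
Ptpn23: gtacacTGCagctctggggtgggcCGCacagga

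The cysteine codon was TGC in 42 and TGT in 2 of the 44 stretches read, and the first domain of Ptpre was one of the latter. At bases 19 to 21 the 3 PEST members carried a second cysteine codon (TGC or TGT), which none of the other 41 stretches had. In 2 stretches, those of Ptprn and Ptprn2, the fifth codon was an aspartate codon. Of all 45 stretches, 39 crossed an exon junction, so that their genomic span includes an intron. The Ptpn22 stretch lay at chr3:103876727-103877326 on the plus strand, across exons 8 and 9 of transcript Ptpn22-201. That of Ptpn6 lay at chr6:124722057-124724967 and that of Ptpn11 at chr5:121143608-121144540, both on the minus strand. The Ptpn1 stretch lay within exon 6, at chr2:167974204-167974236 on the plus strand. The stretches of the other printed members were likewise coding and exonic.

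Library totals were 17474991, 15303615 and 16882311 expected counts on annotated genes for libraries 1, 2 and 3. Library 1 stood apart from the others over the whole transcriptome, and 75.8% of the 13177 genes with at least 30 counts differed between the libraries by more than counting error (chi-square test, Benjamini-Hochberg adjusted p below 0.05). Between libraries 2 and 3 alone this share was 16.7%. The label of the cells was checked against markers. All 5 T cell markers were detected. Of the CD8 pair, Cd8a had 3 counts in total and Cd8b1 was detected, at 5.65, 8.10 and 10.79 TPM in libraries 1, 2 and 3. All 5 memory markers were detected, with a summed level of 1367 TPM in library 1 against 2195 and 2407 TPM in the others, and S100a4 had 23.2 TPM against 178 and 224 TPM. Cxcr3 alone of them was higher in library 1, with 282 TPM against 254 and 253 TPM in libraries 2 and 3. Naive markers were detected too, among them Ccr7 at 381 ± 8.18 TPM and Lef1 at 226 ± 12.2 TPM (SD, n = 3). No B cell, neutrophil, endothelial and stromal or erythroid marker reached the detection minimum of 1 TPM in each library. Some exceeded it in single libraries. Cd79a had 0.66, 1.92 and 1.65 TPM, Hbb-bs 0.48, 4.09 and 1.28 TPM and Hba-a1 0.61, 2.93 and 0 TPM in libraries 1, 2 and 3. Of the plasma cell list all 3 genes were detected, with a summed level of 410 TPM in library 1 against 242 and 223 TPM in libraries 2 and 3, most of it Xbp1 and Jchain. Sdc1 of that list was near the minimum and lowest in library 1, with 1.06, 1.64 and 1.82 TPM in libraries 1, 2 and 3. Klrb1c and Eomes of the NK list, Cd68 of the macrophage list and Bst2 and Zbtb46 of the dendritic lists were detected, while Ncr1 had 1 count in total and Lyz2 a mean of 1.15 TPM. Their part in the results below was not tested. In bulk RNA, fewer cells of a type and less RNA per cell cannot be told apart.

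The cells carried a broad set of non-receptor phosphatases and few receptor-type ones. Detection was defined as at least 1 TPM (transcripts per 1e6 transcripts, a level corrected for transcript length) in each library. It was met by 19 of 36 members, 52.8%, against 44.9% of the 22028 protein-coding genes. Of the detected members 14 were non-receptor and 5 receptor type. The median level over all 36 members was 3.07 TPM, against 0.48 TPM over all protein-coding genes. Over detected genes only, the medians were 27.6 TPM for the members and 28.9 TPM for protein-coding genes. Summed TPM of the 36 members was 1580, 1815 and 1704 for libraries 1, 2 and 3, a mean of 1700 ± 118 (SD, n = 3). Non-receptor genes took 89.5% ± 1.72 (SD, n = 3) of it. The 6 highest members held 87.2% ± 1.62 (SD, n = 3). For scale, Ptprc alone stood at 1346 ± 201 TPM (SD, n = 3).

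**Figure D1:**
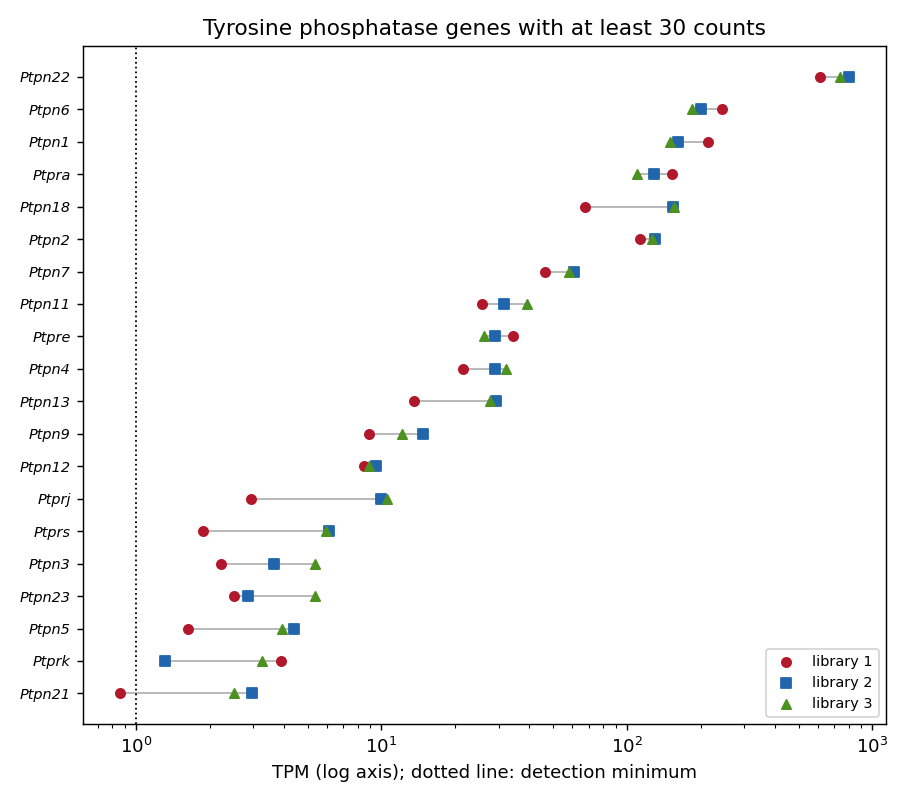
TPM of the 20 members with at least 30 counts in total, on a log axis, with 1 point per library and a grey line over the range; the dotted line is the detection minimum of 1 TPM. Ptpn22 lies above all other members in every library, and the points of library 1 lie to the left of the others for most of the lower members.

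Ordered by mean level, the ranges of neighbours in the list were apart for 3 of 18 pairs of detected members: Ptpn22 above Ptpn6, Ptpn2 above Ptpn7, and Ptpn7 above Ptpn11. The members therefore fell into 1 leading gene, 5 genes between 67.4 and 244 TPM, Ptpn7, and 12 lower genes whose neighbouring ranges overlapped.

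The PEST group acts close to the antigen receptor. Ptpn22 encodes the phosphatase that binds the kinase CSK and dephosphorylates LCK and ZAP-70, and it was the highest member. Its level was 614, 806 and 735 TPM in libraries 1, 2 and 3, a mean of 718 ± 97.1 (SD, n = 3), rank 173 among protein-coding genes. The range lay wholly above that of every other member, and Ptpn22 took 42.1% ± 2.91 (SD, n = 3) of the family's summed TPM. This lead is over all transcripts of the gene. Protein-coding transcripts held 39.1% ± 2.93 of the TPM of Ptpn22 and 96.7% ± 1.15 (SD, n = 3) of that of Ptpn6. Ptpn22-201, annotated as protein-coding, had 219 TPM in library 1, against 244 TPM for Ptpn6 as a whole. In libraries 2 and 3 it had 329 and 299 TPM, against 200.2 and 184 TPM. Ptpn18, a relative with the same kind of proline-rich tail, had 67.4 TPM in library 1 against 154 and 156 TPM in libraries 2 and 3. Library 1 was low and the TPM values of libraries 2 and 3 were close to each other, although their counts differed (chi-square adjusted p = 0.00271). Ptpn12, which encodes PTP-PEST, a regulator of adhesion and the cytoskeleton, had 8.53, 9.48 and 8.89 TPM in libraries 1, 2 and 3. Ptpn12 was the only one of 20 members tested whose counts did not differ between libraries beyond counting error (chi-square adjusted p = 0.101). Ptpn22 exceeded Ptpn12 by a factor of 72.0 to 85.0 in the separate libraries.

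The SH2 domain pair is recruited by phosphorylated receptor tails. Ptpn6 encodes SHP-1, which dampens receptor signalling in blood cells, and had 244, 200.2 and 184 TPM in libraries 1, 2 and 3, with library 1 the highest. Ptpn11 encodes SHP-2, which in many cells promotes growth factor signalling to MAP kinases, and had 25.7, 31.5 and 39.3 TPM in the same order. Here library 1 was the lowest and library 3 the highest. Ptpn6 exceeded Ptpn11 in every library, and the ratio was 9.49, 6.35 and 4.69 in the same order. Receptors and adaptors that can recruit these phosphatases, or that bind the PEST group, were taken from a list of 17 genes, of which 12 were detected. Among them Cd5 stood at 358 ± 95.5 TPM, Pdcd1, which encodes PD-1, at 136 ± 32.6 TPM and Btla at 56.4 ± 5.17 TPM (SD, n = 3). The adaptor genes Gab1 and Gab2, partners of SHP-2 in other cells, had 2 counts and 1 count in total, and Gab3 stood at 28.0 ± 13.9 TPM (SD, n = 3). Pstpip1, which encodes a scaffold of the PEST group, stood at 112 ± 49.6 TPM (SD, n = 3). Library 1 was apart here too, with 44.1 TPM against 20.2 and 19.8 TPM for Gab3. For Pstpip1 it had 54.2 TPM against 141 and 139 TPM, and it was also the lowest for Cd5, Pdcd1 and Btla.

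Ptpn1 and Ptpn2 act on the JAK and STAT proteins. Ptpn1 encodes PTP1B, which is anchored in the endoplasmic reticulum, and had 214 TPM in library 1, 161 TPM in library 2 and 149 TPM in library 3. Ptpn2 encodes TC-PTP, an attenuator of JAK and STAT proteins and of Src family kinases in T cells, and had 113, 130 and 126 TPM in libraries 1, 2 and 3. The spread of Ptpn2 was small, and its counts differed between the libraries (chi-square adjusted p = 0.000882) but not between libraries 2 and 3 (adjusted p = 0.364). Ptpn1 exceeded Ptpn2 in every library, by a factor of 1.18 to 1.89, and the ranges did not overlap. All 10 JAK and STAT genes of the list of their substrates were detected, at mean levels from 42.0 TPM (Tyk2) to 538 TPM (Jak1).

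The kinase interaction motif group acts on MAP kinases. Ptpn7 encodes HePTP, a phosphatase of blood cells, and had 46.4, 60.6 and 58.2 TPM in libraries 1, 2 and 3. Ptpn5, which encodes STEP, a phosphatase best known from neurons, had 1.63, 4.41 and 3.93 TPM. Ptprr, the third gene of the group, had 9 counts in total and was not detected. Ptpn7 exceeded Ptpn5 by a factor of 13.7 to 28.4 in the separate libraries. Of 6 MAP kinase genes 5 were detected, among them Mapk14, which encodes p38 alpha, at 100.3 ± 9.62 TPM (SD, n = 3), and Mapk13 had no count.

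Among receptor-type members the short-ectodomain pair made up most of the signal. Ptpra encodes RPTP-alpha, which removes the inhibitory tail phosphate of Src family kinases, and had 153, 128 and 110.2 TPM in libraries 1, 2 and 3. Ptpre, its closest relative, had 34.4, 29.0 and 26.2 TPM in the same order. Both were highest in library 1 and lowest in library 3, and their ratio stayed between 4.20 and 4.45. Together they reached 160.4 ± 25.7 TPM of the 177 ± 19.3 TPM (SD, n = 3) of all 19 receptor-type members. The other 3 detected receptor genes were low. Ptprj, which encodes CD148, a receptor phosphatase of blood and endothelial cells, had 2.94 TPM in library 1 against 9.99 and 10.6 TPM in the others. Ptprs, which encodes a receptor for heparan and chondroitin sulfate proteoglycans, had 1.87 TPM in library 1 against 6.13 and 5.93 TPM. Ptprk, a receptor of the MAM domain group that binds to itself between cells, had 3.90, 1.31 and 3.25 TPM in libraries 1, 2 and 3, from 160 counts in total. The genes of the Src family kinase switch were all detected, 6 of 6. Fyn stood at 479 ± 26.6 TPM (SD, n = 3). Lck had 2348 TPM in library 1 against 1110 and 1003 TPM in libraries 2 and 3. Csk, the kinase that adds the inhibitory phosphate, had 31.0 TPM in library 1 against 85.1 and 87.5 TPM.

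The remaining non-receptor members carry FERM, PDZ, Sec14 or BRO1 domains. Ptpn4, a FERM and PDZ phosphatase, had 21.6, 29.1 and 32.3 TPM in libraries 1, 2 and 3. Ptpn13, the largest of the non-receptor phosphatases, with several PDZ domains, had 13.5, 29.4 and 27.8 TPM. Ptpn9, whose Sec14 domain places it on secretory vesicles, had 8.90, 14.8 and 12.1 TPM. In all of these library 1 was the lowest and did not overlap the others. Ptpn3, the close relative of Ptpn4, had 2.23, 3.64 and 5.38 TPM from 126 counts in total. Ptpn23, which encodes a protein of endosomal sorting, had 2.51, 2.85 and 5.37 TPM. Ptpn4 exceeded Ptpn3 in every library, by a mean factor of 7.89 ± 1.84 (SD, n = 3).

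Of the 17 members that were not detected, Ptpn21, a FERM phosphatase, lay just outside the minimum with 0.86, 2.97 and 2.52 TPM. The lowest detected member, Ptprk, lay just inside with 1.31 TPM in its lowest library. Another 12 undetected members had from 1 to 22 counts over all libraries: Ptprf, Ptprd, Ptprr, Ptprg, Ptprz1, Ptprn, Ptpru, Ptprb, Ptprt, Ptpn20, Ptpro and Ptpn14, with mean levels from 0.010 to 0.223 TPM. Ptprm, Ptprh, Ptprq and Ptprn2 had no count in any library in the M21 table, while in the M4 table Ptprh and Ptprq had 1 count each, both in library 3. For these 4 genes, 3 counts would have given between 0.0521 and 0.143 TPM in a library, which is the level that a count of 0 allows and covers counting error only. The undetected genes include members known from neurons and neuroendocrine cells (Ptprz1, Ptprd, Ptprn, Ptprn2) and from endothelium (Ptprb). All 17 together summed to 3.12 ± 1.90 TPM (SD, n = 3).

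Of the 20 members with at least 30 counts, 19 differed between libraries beyond counting error, against 75.8% of all tested genes. The chi-square adjusted p ranged from 8.03e-114 for Ptpn22 to 0.0464 for Ptprk among those 19. Between libraries 2 and 3 alone 6 of 20 members differed (Ptpn22, Ptpn1, Ptpra, Ptpn18, Ptpn11 and Ptpn3), against 16.7% of all genes. Of these, Ptpn11 had the smallest adjusted p, 5.85e-15, with 39.3 TPM in library 3 and 31.5 TPM in library 2. When each statistic was divided by the median overdispersion of all genes, 8 members passed, against 27.1% of all genes. The SD as a percent of the mean TPM had a median of 21.2% over the detected members and 22.6% over detected protein-coding genes.

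Library 1 was lower than both others in 14 of the 19 detected members and higher than both in 5 (Ptpn6, Ptpn1, Ptpra, Ptpre and Ptprk), and under DESeq2's scaling of the counts the sign of 1 of them, Ptpn2, flipped to 0.022 on the log2 scale from -0.18. Among all detected protein-coding genes, 46.8% were lowest and 44.2% highest in library 1. The median difference of library 1 from the mean of libraries 2 and 3 was -0.44 on the log2(TPM + 1) scale over the members and -0.05 over all 11694 detected genes. That scale understates the change of low genes. Of the 20 tested members 9 differed and were at least 1.5-fold lower in library 1, against 27.5% of all genes, and 1 (Ptprk) was at least 1.5-fold higher, against 17.3%. The higher call rests on library 2, where Ptprk was lowest, and with TMM-scaled counts no member was called higher, against 20.2% of all genes. The 9 lower genes were Ptprj, Ptprs, Ptpn21, Ptpn5, Ptpn18, Ptpn13, Ptpn3, Ptpn23 and Ptpn9. With TMM scaling 9 members were lower, against 26% of all genes, and Ptpn4 took the place of Ptpn9. With DESeq2 scaling 8 were lower, against 23.5% of all genes, with Ptpn4 in the set and Ptpn9 and Ptpn3 not, and 2 (Ptpra and Ptprk) were higher, against 23.5%. The ratio of the geometric mean TPM of libraries 2 and 3 to the TPM of library 1 was 3.49 for Ptprj, 3.22 for Ptprs and 2.29 for Ptpn18. Over the 19 detected members the log2 difference had a Spearman correlation of -0.38 with the length and -0.34 with the GC content of the leading transcript. Over protein-coding genes, using the longest transcript, the correlations were -0.31 and -0.14. These are across genes that share libraries, and the part of length in the differences was not tested.

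**Figure D2:**
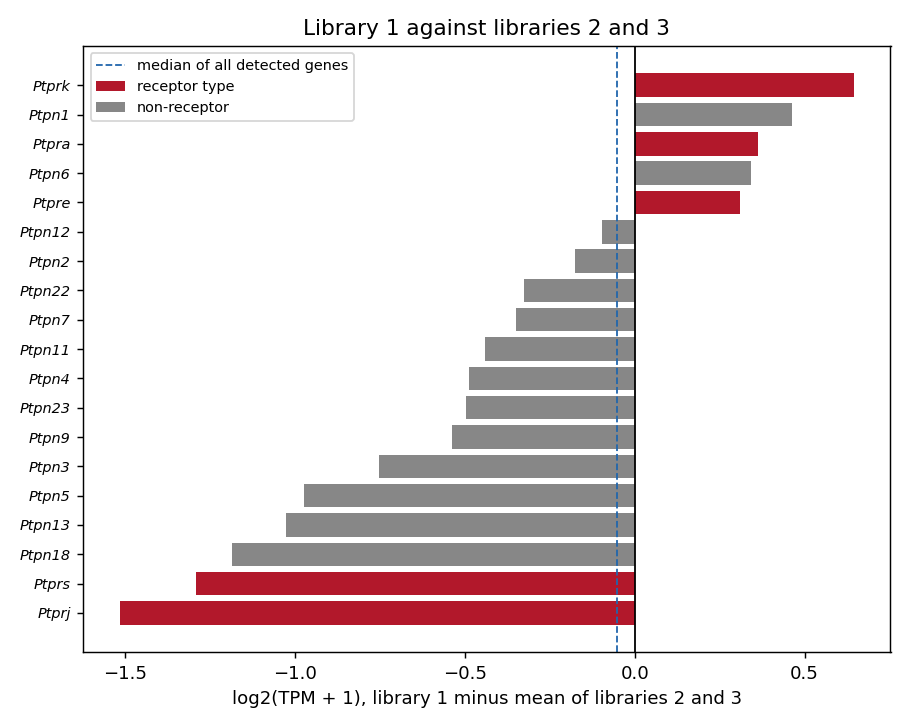
Difference of library 1 from the mean of libraries 2 and 3 on the log2(TPM + 1) scale for the 19 detected members (bars, coloured by type) with the median of all detected genes as a dashed line. Ptpn6, Ptpn1, Ptpra, Ptpre and Ptprk lie above 0, and Ptprj and Ptprs lie lowest.

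The transcript tables show which transcripts of each member carried its level. In 14 of 19 detected members the same transcript led in all libraries, and for 18 of 19 the leading transcript is annotated as protein-coding. The exception was Ptpn5, led by the retained-intron transcript Ptpn5-209 at 55.1% ± 12.4 (SD, n = 3) of the gene's TPM. Transcripts that hold a catalytic stretch made up at least 90% of the TPM of 6 members, namely all of that of Ptpn2 and Ptpn11 and most of that of Ptpre, Ptprj, Ptpn7 and Ptpn9. The median over the 19 was 71.3%. In the 4 detected members with 2 stretches (Ptpra, Ptpre, Ptprs and Ptprk), a transcript with only that of the second domain was counted too. In expected counts, where short transcripts weigh less, 10 members reached 90% and the median was 91.0%. Transcripts of every annotated type were counted here, so these are not shares of protein-coding transcripts. In Ptpn1 the stretch share of TPM was 84.0% and the protein-coding share 37.2%, and in Ptpn5 they were 67.5% and 12.3% (means, n = 3). In Ptpn6, Ptpra, Ptpn18, Ptpn4, Ptprs, Ptpn3, Ptpn23 and Ptprk the protein-coding share was the higher of them. In 3 members the leading transcript lacks the stretch: Ptpn18-206, Ptpn4-203 and Ptpn3-203.

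**Figure D3:**
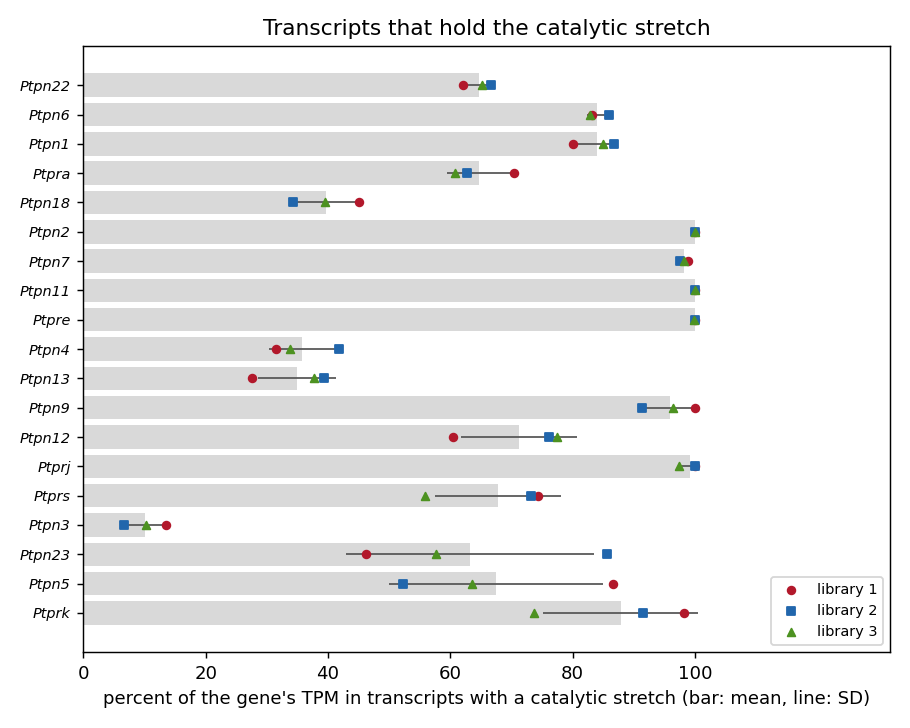
Percent of each detected member's TPM that lies in transcripts of any annotated type holding a catalytic stretch, of either domain where there are 2. The mean (bar), SD (line) and the 3 libraries (points) are shown. Ptpn3 is lowest at 10.1%, Ptpn13, Ptpn4 and Ptpn18 lie between 34.9% and 39.7%, and Ptpn2 and Ptpn11 reach 100%.

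Ptpn22 was spread over several transcripts. The full coding transcript Ptpn22-201 held 35.7%, 40.8% and 40.7% of its TPM in libraries 1, 2 and 3. Ptpn22-204, annotated for nonsense-mediated decay although it holds the stretch, had 25.6% ± 0.992 (SD, n = 3). The retained-intron transcripts Ptpn22-202 and Ptpn22-203, of 649 and 558 bases, held 14.7% ± 4.02 and 12.5% ± 1.80 (SD, n = 3). Transcripts with the stretch made up 64.7% ± 2.29 of the TPM and 85.0% ± 1.01 (SD, n = 3) of the expected counts of Ptpn22. The shares differ because TPM corrects for length, so a short transcript takes a larger share of TPM than of counts.

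Ptpn18 showed this gap too. Its 414-base transcript Ptpn18-206, which does not hold the stretch shown above, held 52.8%, 63.7% and 58.4% of the gene's TPM, and Ptpn18-201, with the stretch, held 45.0%, 33.8% and 39.2%. In expected counts, transcripts with the stretch held 72.1% ± 4.44 (SD, n = 3) of Ptpn18. Of the 50-base words of Ptpn18-206, 29.9% also occur in another gene's transcripts, those of Gm28417, which overlaps it on the opposite strand, so its level is uncertain. In the other 18 detected members at most 10% of such words were shared. For Ptpn3 the stretch-holding transcripts held 10.1% ± 3.45 of the TPM and 55.5% ± 11.8 of the expected counts, and for Ptpn4 35.7% ± 5.39 and 71.0% ± 2.19 (SD, n = 3). For Ptpn13, transcripts with the stretch held 34.9% ± 6.34 of the TPM and 58.0% ± 7.79 (SD, n = 3) of the expected counts. Ptpn1-201 led Ptpn1 in libraries 2 and 3 with 42.9% and 42.2%, while in library 1 the processed transcript Ptpn1-206 led with 37.2% against 26.4% for Ptpn1-201. In Ptprs, Ptprs-211 took 71.0% in library 1 and 0% in library 2, where Ptprs-202 took 50.9%, from 562 counts in total. Antisense genes overlap Ptpn6, Ptpra, Ptpre, Ptpn9 and Ptpn13, and each of these antisense genes was listed below 4 TPM in every library. The lincRNA gene Gm12536 overlaps Ptpn3 on the opposite strand, by at most 30 bases of an exon. It had 0, 0.73 and 1.25 TPM in libraries 1, 2 and 3. The sources used here do not state whether counting used strand, so parts of these members' levels are uncertain.

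The second gene table, with whole-number counts on GENCODE M4, gave the members nearly the same order as the M21 expected counts. All 36 members were found in it, and over the 20 members with at least 30 counts the Spearman correlation with the M21 counts was 0.98. The order by TPM used above differs from the order by counts. Ptpn18 lay above Ptpn7 by TPM, but had 345, 473 and 519 M4 counts in libraries 1, 2 and 3, against 515, 554 and 594 for Ptpn7. The M4 counts were lower, at a median of 57.6% of the M21 counts over the detected members and 51.5% over detected protein-coding genes. Ptpn22 had the lowest share, 31.4%, and Ptpn23 the highest, 91.5%. The non-receptor share of the members was 82.0% in these counts. What lowers the M4 counts was not tested.

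**Figure D4:**
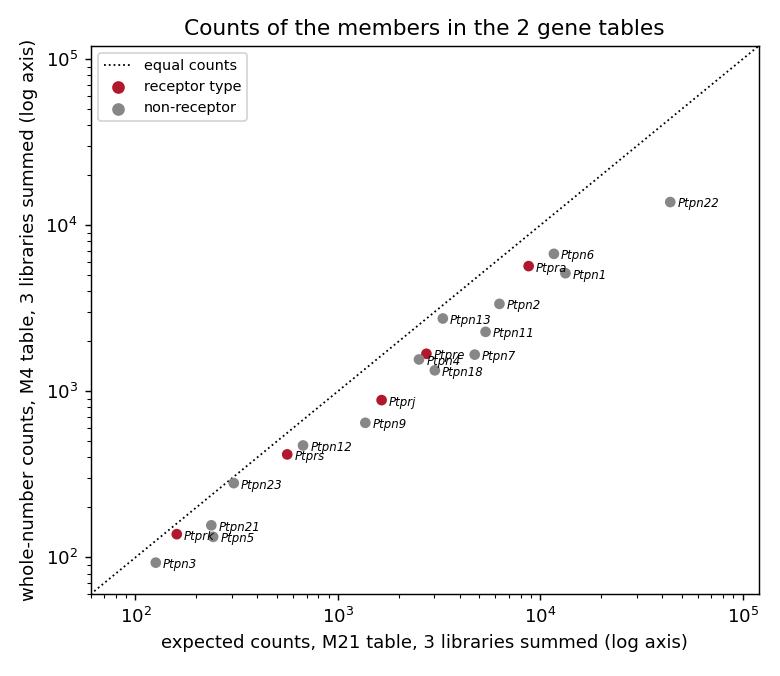
Counts summed over the 3 libraries for the 20 members with at least 30 counts, M21 expected counts against M4 whole-number counts, both on log axes, with the dotted line at equal counts. All members lie below the line, and Ptpn22 lies farthest below it, at 31.4%.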

How the data were processed

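PolyA RNA from 1 biosample was measured in 3 libraries, sheared on a Covaris instrument, per the labels. The deposited M21 gene tables give, per the file headers, expected counts (estimated, not whole), TPM and FPKM scaled by the authors within a library, and the transcript tables add each transcript's percent of its gene. A deposited headerless table holds whole-number counts on GENCODE M4. The aligner, quantifier and strand setting are not stated in these sources. Rows without an annotated gene, at most 0.304% of expected counts, were left out.

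Expected counts were rounded and tested for homogeneity over libraries with Pearson's chi-square test on genes with at least 30 counts, with Benjamini-Hochberg adjustment over all genes. With 1 group no quasi-likelihood test was possible. TMM (edgeR 4.0.16) and DESeq2 1.42.0 size factors served only as other scalings, in R 4.3.3. The other steps ran in Python 3.11.15 with pandas 2.3.3, scipy 1.17.1 and Biopython 1.88. The chi-square step was tested on counts simulated with counting error only. In the data the median overdispersion, the statistic divided by its degrees of freedom, was 13.8, so the simulation does not cover the spread of these libraries. A transcript held a stretch where its sequence contained any of the 33-base stretches found in the gene's coding transcripts. In members with 2 stretches, that of either domain was enough. Every member was named, and genes outside the family came from 6 pathway lists and the marker lists. Members and lists were chosen with earlier results of these data known. Some items are not reported here.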

Additional observations from a re-analysis of the deposited data

How the results depend on the processing

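The number of detected members, 19, stayed between 13 and 20 under the other minimums and with a library left out, and 14 to 18 members had 1 transcript leading in every library. Other measures moved the following. The non-receptor share, 89.5% in TPM, was 87.4% in expected counts and 82.0% in the M4 counts. The share of Ptpn22, 42.1% in TPM, was not computed in counts. The number of members that differed between libraries, 19, was 8 with the statistic divided by the median overdispersion. Leaving out 1 library gave 6 to 19, with 6 without library 1. The log2 difference of library 1 was also computed with DESeq2 scaling, chosen after seeing the data, which moved the median of all detected genes from -0.05 to 0.12, reversed Ptpn2 from -0.18 to 0.022 and moved Ptpra from 0.36 to 0.67 and Ptpn7 from -0.35 to -0.12. With TMM, Ptpn12 moved from -0.095 to -0.18. The number of members at least 1.5-fold higher in library 1, which was 1, was 0 with TMM and 2 (Ptpra and Ptprk) with DESeq2 scaling, also added after seeing the data, while 9 and 8 were lower. No paired analysis was possible because there is 1 group. Members under 30 counts could not be tested, and 3 technical libraries of 1 mouse give no spread between animals.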

Other observations

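Of 16 phosphatase genes outside the classical family in a list, 13 were detected, with a median of 25.0 TPM over the list. Ptp4a2 and Ptp4a1, which encode small prenylated phosphatases, stood at 652 ± 174 and 466 ± 186 TPM (SD, n = 3), both highest in library 1. Ubash3a, which encodes a suppressor of antigen receptor signalling, stood at 173 ± 8.57 TPM (SD, n = 3), while its relative Ubash3b had 16.7 ± 2.47 TPM (SD, n = 3). Cdc25c, Eya1 and Eya4 were not detected.

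Ptprv is annotated as a processed transcript and not as protein-coding, so it is no member, yet its level was above that of every receptor-type member except Ptpra and Ptpre on average. It had 7.51 TPM in library 1 against 27.3 and 28.4 TPM in libraries 2 and 3, a mean of 21.1 ± 11.8 (SD, n = 3). The transcript with most of its counts, Ptprv-210 of 6108 bases, held 83.6%, 93.8% and 89.4% of its expected counts in libraries 1, 2 and 3. Of the TPM of Ptprv this transcript held 21.6%, 41.7% and 30.7%, so most of that level lay in other transcripts. Ptprv lies on the minus strand and begins 105 bases from the start of Ptpn7 on the plus strand, so the genes point away from each other. The bases between both starts are shown because they separate the first start of Ptpn7 from that of Ptprv. They are from RefSeq's promoter table (GRCm38.p6), plus strand, chr1:135132595-135132699.
Ptprv to Ptpn7: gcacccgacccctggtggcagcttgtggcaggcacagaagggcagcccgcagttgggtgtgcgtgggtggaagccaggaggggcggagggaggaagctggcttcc
Their GC content is 69.5% and they hold 4 CG pairs. The upstream start of Ptpn7 (Ptpn7-201 and Ptpn7-203) held 30.4%, 41.5% and 50.7% of its TPM in libraries 1, 2 and 3. The downstream start (Ptpn7-202 and Ptpn7-204), near position 135133309 of chromosome 1, held 69.6%, 58.5% and 49.3%. These genes do not overlap, and any relation between their levels was not tested.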
